A study of Caenorhabditis elegans with 24 samples.

Results

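The adult transition was examined in the cells of Caenorhabditis elegans that are not distal tip cells. The members were 6 of the 24 libraries of the series, chosen by their labels: the 3 Venus-negative libraries from adults and the 3 Venus-negative libraries from late L4 larvae, with all genes. The series profiled polyadenylated RNA in wild-type hermaphrodites that carry a Venus-labelled distal tip cell (DTC), the cell that caps each gonad arm and leads its migration. At late L3, early L4, late L4 and adulthood, dissociated animals gave a Venus-positive and a Venus-negative fraction, with 3 samples of each. Animals of every group were fed OP50 bacteria and kept at 20 °C. Each sample held 30000 to 60000 cells, RNA came from an miRNeasy kit, and libraries were made by Nextera XT from 1 ng of cDNA. Both groups compared here are therefore mixtures of every somatic and germline cell type that survived dissociation, without the labelled cell. The labels give no age in hours for either stage, and do not say whether replicates came from separate cultures, so p-values measure the spread between these samples only.

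Between late L4 and adulthood a hermaphrodite completes its last moult and replaces the larval cuticle, a sheet of collagens secreted by the hypodermis, with an adult one. Its germline makes sperm first and then switches to oocytes, and its intestine begins to secrete vitellogenins, the yolk proteins that oocytes take up. Basement membranes, built of laminin, type IV collagen, perlecan and papilin, line the gonad, muscle, pharynx and hypodermis, and grow with these tissues through larval life.

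Total counts were 11896485 to 12224023 at late L4 and 12177455 to 13200254 in adults. Ribosomal RNA genes took 11.2, 33.2 and 32.6% of counts in adult replicates 1, 2 and 3, beside 14.5 and 7.25% in late L4 replicates 2 and 3 and a share slightly above that of replicate 2 in late L4 replicate 1. Late L4 replicate 3 stood apart from the other 2 of its group: its summed level of furrow and body-shape collagens was 628 CPM beside 7440 and 7730, and its basement membrane sum was 33900 CPM beside 17300 and 15400. Adult replicate 1 differed from the other adults in its ribosomal RNA share and its sum of yolk and yolk receptor genes, which was 9640 CPM beside 19300 and 34200. Levels (CPM) are counts scaled per library by its TMM-adjusted total. The sorting label was checked with lag-2, the Notch ligand of the DTC, which stood at 0, 0 and 2.29 CPM in late L4 other cells and at 0, 0 and 0.103 CPM in adults, beside 218 to 341 CPM in late L4 DTC libraries and 46.8 to 54.3 CPM in adult ones. Of the other 6 genes of the same DTC marker list, fbxa-154 and srt-62 had no count in the 6 libraries, and mig-21, nid-1 and catp-5 reached at most 4.29, 67.9 and 15.7 CPM in them, beside at least 892, 5040 and 450 CPM in late L4 DTC libraries. In adult DTC libraries those 3 genes stood at or above 162, 356 and 20.3 CPM. The 6th, hlh-12, was low in both fractions and did not separate them, at 0.357 to 3 and 0.298 to 4.75 CPM in late L4 and adult other cells and 2.56 to 5.71 and 2.41 to 4.04 CPM in DTC libraries. Because the fractions are bulk samples, fewer cells of a type and less RNA per cell cannot be told apart in any result that follows.

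Of 16887 genes tested, 1133 (6.71%) differed between adults and late L4 at an adjusted p under 0.05 in edgeR's quasi-likelihood test with Benjamini-Hochberg adjustment, fitted over all 24 libraries. Adults were higher for 347 genes (2.05%) and lower for 786 (4.65%). These shares are the background for the 24-library calls counted in each list below. That split depended on the scaling: 69.4% of calls were lower with TMM, 87.9% (144 higher and 1044 lower) with RLE size factors, and 82.9% (184 higher and 895 lower) with ribosomal RNA genes left out. The median log2 fold change of all genes was 0.09 with TMM and -0.15 with RLE, so changes are read against 0.09. Among called genes, 24 higher and 220 lower ones were also called with each of the 6 libraries left out in turn. Leaving out 1 library gave between 428 calls (without adult replicate 2) and 1230 (without adult replicate 1); the other 4 gave 442 and 461 calls (without late L4 replicates 1 and 2), 710 (without late L4 replicate 3) and 481 (without adult replicate 3). Without late L4 replicates 1, 2 and 3 in turn, 0.407, 0.395 and 0.626% of genes tested were called higher and 2.09, 2.2 and 3.38% lower. Without adult replicates 1, 2 and 3 in turn, the shares were 1.2, 0.31 and 0.418% higher and 5.76, 2.1 and 2.3% lower. Other tools called more: DESeq2 had 3.54% of genes higher and 14.4% lower, limma voom with sample quality weights 2.84% higher and 5.15% lower, and an unadjusted edgeR p under 0.05 was reached by 11.5% on the higher side and 16% on the lower. Fitting only the 6 libraries called 4.75% of the genes it tested, 55 genes higher (0.415% of 13251 tested) and 575 lower (4.34%), of which 33 and 373 were also called with 24 libraries. No overlap between the 3 adult and 3 late L4 libraries was seen for 27.7% of genes, 1853 on the higher side (11% of those tested) and 2831 on the lower side (16.8%). Of the genes called lower, 249 had no count in any adult library.

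**Figure D1:**
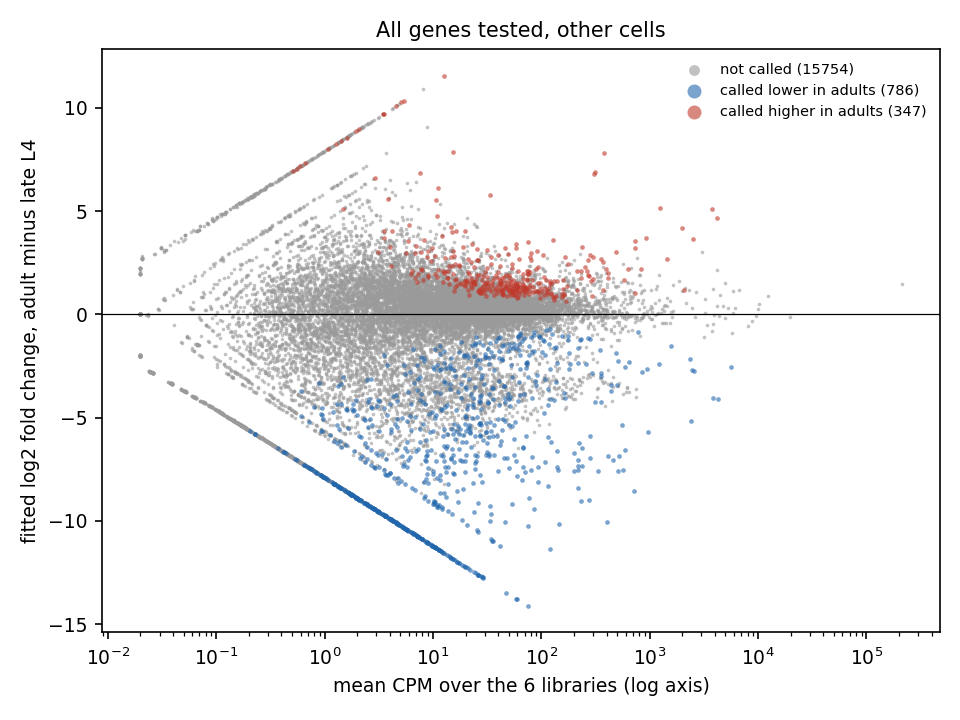
Each point is 1 of the 16887 genes tested, with its mean CPM over the 6 libraries on a log axis and its fitted log2 fold change, adult minus late L4; red points were called higher, blue points lower, and grey points not called. Means below 0.02 CPM are drawn at 0.02, and the diagonal edges are genes with no count in a group; the 786 lower calls include 249 such genes, while the 347 higher calls lie mostly at smaller changes.

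The yolk proteins rose together. All 6 vitellogenin genes were called higher in adults, with 24 libraries and with 6, and the median of the 7-gene list with the yolk receptor rme-2 was a log2 fold change of 5.13. Levels are given below for late L4 replicates 1, 2 and 3 and then for adult replicates 1, 2 and 3. Counts of vit-5 (chromosome X, 3403471 to 3408603, WBcel235) were 27.3, 33.3 and 147 CPM at late L4 and 1330, 1870 and 4080 CPM in adults. Every adult library was therefore above every late L4 library, with late L4 replicate 3 the highest of its group and adult replicate 3 the highest of all. Its log2 fold change was 5.13 ± 0.97 (SE, edgeR adjusted p = 0.00914). For vit-3 (chromosome X, 3567355 to 3572549) the levels were 1.8, 1.79 and 6.54 CPM and then 273, 627 and 1340 CPM, a log2 fold change of 7.79 ± 1.47 (adjusted p = 0.00743). The same order of libraries was seen for vit-2, at 200, 244 and 511 CPM and then 3070, 7400 and 13800 CPM, a log2 fold change of 4.67 ± 1.00 (adjusted p = 0.0142).

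The calls for vit-1, vit-3, vit-4 and vit-5 held with each of the 6 libraries left out. That for vit-2 was lost without late L4 replicate 1 (adjusted p = 0.0557) or 2 (0.0548). For vit-6, whose log2 fold change was 5.10 ± 1.36, the call held only without adult replicate 1, with adjusted p up to 0.102. The vit-3, vit-4 and vit-5 genes are near-identical copies, so how their reads divide among them is uncertain. The receptor rme-2, which takes yolk into oocytes, was at 363, 347 and 622 CPM at late L4 and 1540, 1350 and 688 CPM in adults; the groups did not overlap, but the gene did not pass the test (log2 fold change 1.43 ± 0.46, adjusted p = 0.0657). The 6 vitellogenin genes summed to 0.502 CPM at late L3, 4.9 CPM at early L4, 617 ± 370 CPM at the end of L4 and 19900 ± 12800 CPM in adult libraries (each a mean, the last 2 with their SD over n = 3). The receptor gene rme-2 was expressed earlier, with means of 94 CPM at late L3 and 227 CPM at early L4.

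Most genes of oocytes and the eggshell had higher levels in adults without passing the test one by one. None of the 17 genes for eggshell and egg activation was called, but 13 had no overlap between groups on the higher side, where 11% of all genes tested had none. The median log2 fold change of these genes was 1.10. Their summed level was 7000, 6810 and 11500 CPM at late L4 and 18600, 18400 and 19500 CPM in adults. Adult libraries were close to each other in this sum, and late L4 replicate 3 was again the highest of its group. That closeness is one of the sum, not of single genes. The most abundant members, perm-4 and perm-2, rose from adult replicate 1 to 3, with perm-2 at 4360, 5230 and 6340 CPM. Other members fell, such as cpg-3 at 1990, 850 and 838 CPM, or rose, such as perm-5 at 89.4, 165 and 173 CPM. By gene, perm-4 was at 3240, 2890 and 4900 CPM and then 7130, 8200 and 9040 CPM (log2 fold change 1.14 ± 0.75, adjusted p = 0.329). The chitin synthase gene chs-1 was at 129 to 243 CPM and then 762, 440 and 402 CPM, with no overlap (1.61 ± 0.49, adjusted p = 0.0534). On the higher side 7 of the 17 had an unadjusted p under 0.05, 8 passed with limma voom and 1 with DESeq2.

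Few genes of other germline and cell cycle groups passed the test. Of 13 oocyte markers none was called by edgeR, and the median was 1.15. On the higher side 11 did not overlap, where 11% of all genes tested did not. By unadjusted edgeR p under 0.05 there were 6, and 9 were higher with voom and 1 with DESeq2. These markers are no separate set. The eggshell list also holds chs-1, cbd-1, cpg-1, cpg-2, perm-2, perm-4 and egg-1, and the yolk list rme-2. The rest, oma-1, oma-2, puf-5, puf-11 and spn-4, are in the oocyte RNA list that follows. Of 21 regulators of oocyte RNA, gld-3, a KH-domain translation regulator, was called higher (1.47, adjusted p = 0.0443), and of 26 germ granule and small RNA genes cey-3, a cold-shock domain protein, was called higher (0.90, adjusted p = 0.0445); leaving out any 1 of the 6 libraries ended both calls. No gene among 31 meiotic chromosome genes or 16 germline markers was called by edgeR, with medians of 0.54 and 0.50 and with 5 and 3 genes at an unadjusted p under 0.05. With voom and DESeq2 each, 1 meiotic gene was called higher and 0 germline markers. The germline markers all belong to the oocyte RNA, germ granule or meiotic lists as well. Of 41 cell cycle and DNA replication genes, 4 were called higher and 1 lower, with a median of 0.55. Over all genes 2.05% were called higher and 4.65% lower, so the 1 lower call is not above that share. The replicative helicase subunit mcm-3 rose from 58.1, 57.3 and 72.7 CPM to 250, 196 and 91.3 CPM (1.51 ± 0.29, adjusted p = 0.0068); without adult replicate 1 or 2 its adjusted p was 0.0575 or 0.0586. The cyclin B genes moved in opposite directions, cyb-3 higher (1.22 ± 0.36, adjusted p = 0.0484) and cyb-1 lower (-1.23 ± 0.36, adjusted p = 0.0455). The list had no higher call without adult replicate 1 or 2, 2 without late L4 replicate 2 and 1 without each of the other 3; cyb-1 stayed called only without adult replicate 1.

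Genes expressed in sperm were lower in adults. Major sperm proteins (MSPs) are small cytoskeletal proteins that drive the crawling of nematode sperm. All 30 msp genes tested had every adult library below every late L4 library, as 16.8% of all genes tested did, with a median log2 fold change of -3.30. Their summed level was 6150, 5690 and 13700 CPM at late L4 and 1510, 889 and 294 CPM in adults. Late L4 replicate 3 was the highest of the 6 libraries for all 30 genes and adult replicate 3 the lowest for 27. The fit over 24 libraries called only msp-50 (chromosome II, 5199797 to 5200180), which fell from 493, 402 and 991 CPM to 129, 77.9 and 26.2 CPM, a log2 fold change of -3.01 ± 0.81 (edgeR adjusted p = 0.0335) that stayed called only without adult replicate 1 among the libraries left out.

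The number of msp genes called varied with the fit. The 1 edgeR call with all 24 libraries, of 30 genes, is near the 4.65% of all genes called lower. With all 24 libraries, limma voom called 26 lower and DESeq2 22. At late L3, replicate 3 of the other cells had a summed msp level of 972 CPM, beside 7.13 and 9.44 CPM in replicates 1 and 2, and that spread enters the shared estimate. Without that library, an alternative chosen after seeing the data, 27 of the 30 msp genes were called lower, where 7.93% of all genes were. With only the 6 libraries of the comparison, 19 of 29 were called lower, where 4.34% of all genes were. Msp copies are near-identical, so the level of a single one is uncertain while the sum is less so.

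Among 46 other sperm genes, 5 were called lower with 24 libraries, 25 without late L3 replicate 3, and 14 of 45 with 6 libraries. Their median log2 fold change was -3.48, and 36 of the 46 did not overlap on the lower side, where 16.8% of all genes tested did not. No adult library had a count of spe-42, which encodes a sperm membrane protein needed for fertilization and stood at 2.77, 11.9 and 9.38 CPM at late L4, so adults were at least 96.6-fold lower (against 3 counts over the group). The ferlin gene fer-1 fell from 44.1, 5.21 and 74.4 CPM to 2.51, 0 and 0 CPM (-5.52 ± 1.54, adjusted p = 0.0386). Also called lower were spe-26, an actin-associated kelch protein (-5.03), and cpb-2, a cytoplasmic polyadenylation element binding protein (-5.59). None of the list's 5 calls held with each library left out; the list had 2 calls without late L4 replicate 1, 2 or 3, 4 without adult replicate 1, 3 without adult replicate 2 and 0 without adult replicate 3. The sperm phosphatase gsp-3 stood at 425, 421 and 989 CPM and then 49.2, 47.7 and 18.8 CPM without passing the 24-library test (-3.99, adjusted p = 0.0900), and passed with 6 libraries (adjusted p = 0.0176). The 46 genes summed to 1130 CPM at late L3, to 4960 CPM at early L4 and to 8400 ± 4800 CPM at the end of L4, against 932 ± 430 CPM in adult libraries.

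**Figure D2:**
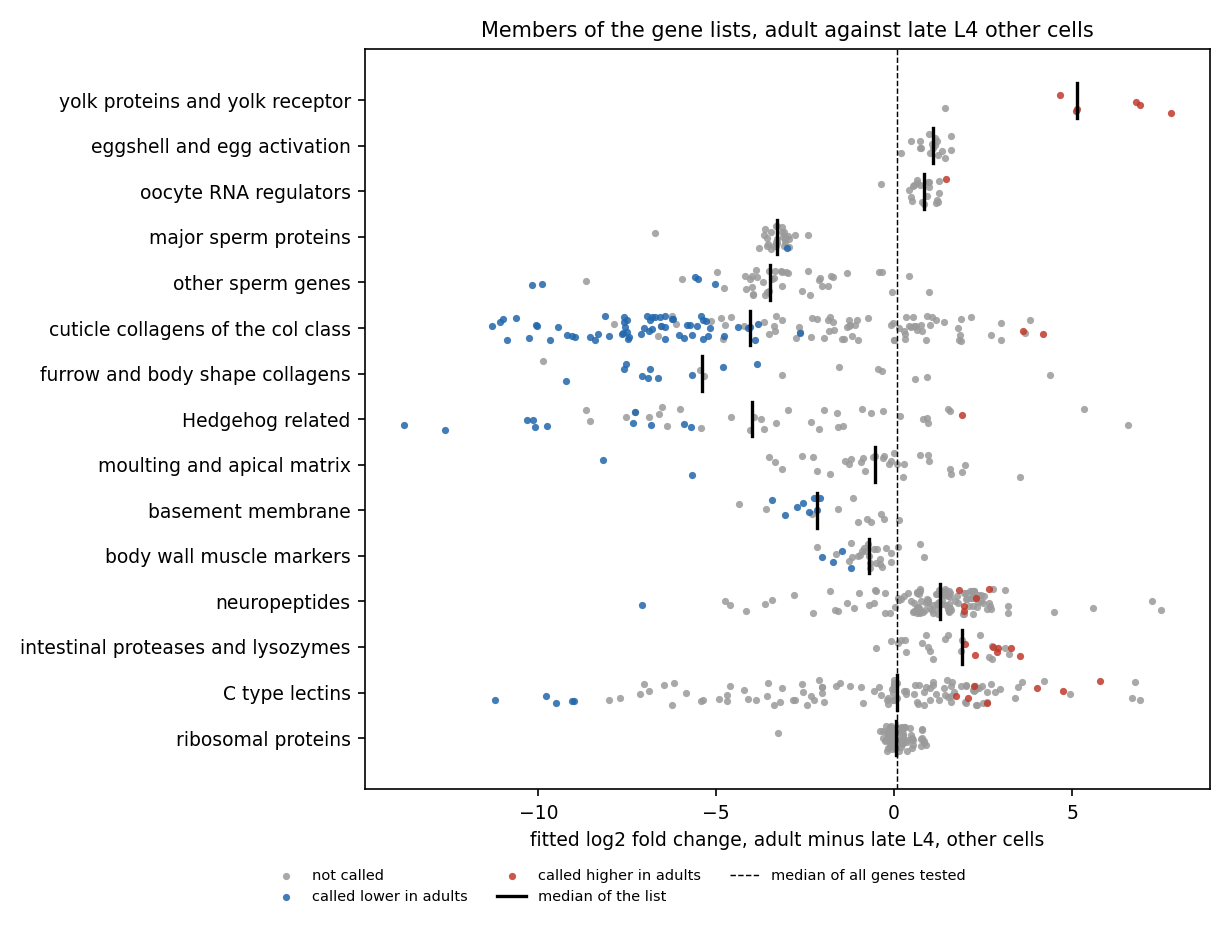
Each point is 1 tested member of a gene list, placed at its fitted log2 fold change, adult minus late L4, with blue for called lower, red for called higher and grey for not called; the black tick is the list's median and the dashed line the median of all genes, 0.09. The yolk list lies to the right with a median of 5.13, the basement membrane list to the left at -2.17, and the msp list at -3.30 with 1 blue point.

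Many cuticle collagens of the col class fell. Of 137 col genes tested, 61 were called lower in adults and 2 higher, with a median log2 fold change of -4.06, or -3.71 when genes at or under 3 counts in a group are set at their bound. With 6 libraries the counts were 48 lower and 3 higher of 113. The summed level of all 137 was nevertheless 96700, 103000 and 55000 CPM at late L4 and 37500, 89800 and 128000 CPM in adults, overlapping ranges with means of 84800 ± 26000 and 85200 ± 45600. The 61 genes called lower together held 45300, 49600 and 18300 CPM at late L4 and 1080, 2020 and 1270 CPM in adults. The 74 genes that were not called held 46900 ± 9070 CPM at late L4 and 79800 ± 42900 in adults, and the 2 genes called higher rose from a mean of 223 to 3970 ± 2560 CPM. Adult replicate 1 had the lowest adult sum and adult replicate 3 the highest.

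Strongly and weakly expressed collagens were both among those that fell; col-81, col-129, col-161 and col-49 were picked after their values were seen. The levels of col-81 were 5220, 5820 and 2900 CPM at late L4 and 105, 183 and 97.3 CPM in adults, a log2 fold change of -5.18 ± 0.80 (edgeR adjusted p = 0.00165). For col-129 they were 7970, 8750 and 5030 CPM and then 385, 624 and 293 CPM (-4.06 ± 0.82, adjusted p = 0.00909). In both, late L4 replicate 3 was the lowest of its group and still well above every adult library. Some became nearly undetectable: col-161 went from 1090, 1200 and 149 CPM to 1.84, 0.0995 and 0.103 CPM (-10.06 ± 1.35, adjusted p = 0.000566), and col-49 from 211, 224 and 14.9 CPM to 0.0613, 0.0995 and 0.207 CPM (-10.26 ± 1.29, adjusted p = 0.000375). For col-13 (chromosome V, 10420788 to 10421902) a single adult count was left, and late L4 was 2620-fold higher (470 to 104000, 95% interval for counting error only). All of these calls held with each library left out. In all, 40 lower calls and 1 higher call held that way, and the number of lower calls ran from 41 without adult replicate 2 to 63 without late L4 replicate 3.

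The gene that rose among them and held with each library left out was col-101 (chromosome IV, 325435 to 327020), at 221, 170 and 221 CPM and then 1330, 3780 and 6090 CPM. Its log2 fold change was 4.19 ± 0.78 (adjusted p = 0.00584), and it was low earlier, with means of 2.99 CPM at late L3 and 7.36 at early L4. The other, col-95, rose from 11.4, 24.9 and 21.9 CPM to 79.6, 186 and 448 CPM (3.62 ± 0.85, adjusted p = 0.0199), a call kept only without adult replicate 1. Of the 5 col genes with the highest adult means, col-140 stood at 9580, 9750 and 6720 CPM and then 7210, 17600 and 23600 CPM, overlapping ranges that did not pass the test (0.89, adjusted p = 0.365). Over the 4 stages, 39 of the 61 lower genes had their highest mean at late L4, and for 30 of the 61 the early L4 mean was less than 0.25 of the late L4 mean. In 46 of the 61, late L4 replicate 3 was over 4-fold below both other late L4 libraries, as it was for 7.2% of all genes tested. The part of that library in these results was not tested, other than by leaving it out, which gave 63 lower calls. Many col genes are close copies, so single members are uncertain.

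**Figure D3:**
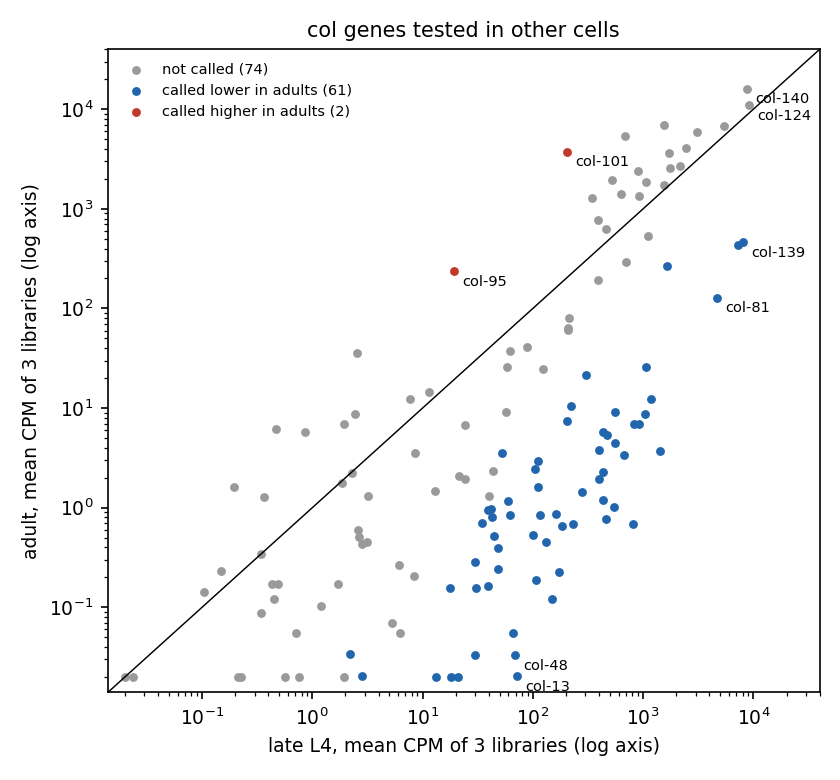
Each point is 1 of 137 col genes, with its mean CPM at late L4 on the x axis and in adults on the y axis, both log scales with values below 0.02 drawn at 0.02; the diagonal marks equal levels. The 61 genes called lower (blue) lie below the diagonal over most of the range of late L4 levels, 2 called higher (red) lie above it, and the 74 not called (grey) include the most abundant genes in adults.

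Collagens that form the furrows of the cuticle or shape the body were lower in adults. Of 20 such genes 10 were called lower, with a median of -5.39. The levels of dpy-4 (chromosome IV, 14985543 to 14986784) were 1460, 1750 and 159 CPM at late L4 and 4.97, 5.77 and 7.54 CPM in adults, a log2 fold change of -7.53 ± 1.50 (adjusted p = 0.00871). For dpy-13 they were 1410, 1510 and 124 CPM and then 6.93, 0.199 and 8.68 CPM (-7.58 ± 1.69, adjusted p = 0.0151). Both held with each library left out, and in both late L4 replicate 3 lay far below the other 2 of its group. The list's mean summed level went from 15400 CPM at late L3 through 8360 CPM at early L4 and 5270 ± 4020 CPM at the end of L4 to 176 ± 48 CPM in adult libraries. Its lower calls numbered 4 without late L4 replicate 1 or 2, 12 without late L4 replicate 3, 5 without adult replicate 1 and 3 without adult replicate 2 or 3; with 6 libraries, 4 of 14 were called lower. Of 14 genes for collagen processing and cross-linking, doxa-1, a maturation factor of the dual oxidase that cross-links cuticle, was called lower, from 26.5, 43.1 and 5.28 CPM to 0, 1.69 and 0 CPM (-5.54 ± 1.14, adjusted p = 0.0101), and held with each library left out.

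Hedgehog-related genes, a family of secreted proteins expanded in nematodes and expressed largely in the hypodermis, gave 11 lower calls and 1 higher call of 46, with a median of -4.0 (-3.03 at the bound). Those named here are of the groundhog (grd) and warthog (wrt) classes. No adult library had a read of grd-6 (chromosome V, 9221866 to 9224354), which was at 170, 156 and 27.3 CPM at late L4, so it was at least 1440-fold lower (adjusted p = 0.0106). The calls for grd-6, grd-15 (22.4, 7 and 2.84 CPM and then 0, 0.0995 and 0.103 CPM) and wrt-6 (14, 6.36 and 1.18 CPM and then 0) held with each library left out. The higher gene, grd-5, rose from between 96.6 and 120 CPM to 286, 344 and 637 CPM (1.91 ± 0.49, adjusted p = 0.0282), a call kept only without adult replicate 1. Leaving out 1 library gave 6 lower calls without late L4 replicate 1 or 2, 11 without late L4 replicate 3, 7 without adult replicate 1 and 4 without adult replicate 2 or 3; with 6 libraries 5 of 28 were lower. Of 26 patched-related genes ptr-3 was called lower, with no count in adults and 4.95, 19.6 and 4.57 CPM at late L4 (adjusted p = 0.0271), a call lost without late L4 replicate 2 or any 1 adult (adjusted p up to 0.0766). That 1 call in 26 is near the 4.65% of all genes called lower.

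Among 33 moulting and apical matrix genes 2 were called lower, with a median of -0.53. That is near the share of all genes tested that were called lower, 4.65%. These were cut-2, a cuticlin, from 57.5, 77.9 and 3.7 CPM to 0.368, 0 and 0 CPM (adjusted p = 0.0263), and acn-1, an ACE-like protein needed for moulting, from 34.6, 19.6 and 1.42 CPM to 0, 0.0995 and 1.03 CPM (adjusted p = 0.0498). Neither held throughout: the list had no call without late L4 replicate 1 or 2 or adult replicate 2 or 3, 3 genes were called without late L4 replicate 3 and 2 without adult replicate 1. Of 19 heterochronic genes, which time larval fates, the 1 called lower, again near the share of all genes, was lin-14 (chromosome X, 11465560 to 11485871). This early-stage nuclear protein gene was at 3.52, 0.643 and 3.23 CPM at late L4 and 0 in every adult library, at least 29.1-fold lower (adjusted p = 0.00311), and held with each library left out. Of 16 hypodermis and seam markers 3 were called lower, with a median of -0.70. They were dpy-7, rol-6 and wrt-2, which are also in the furrow collagen or Hedgehog-related lists. The rest were not called, among them ajm-1 (-0.1), dlg-1 (0.16), lin-26 (0.62), elt-1 (-1.66) and che-14 (-6.03). Without late L4 replicate 1 or adult replicate 1 the list had 1 call, and without late L4 replicate 3 it had 3. Without late L4 replicate 2, adult replicate 2 or adult replicate 3 it had none.

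Basement membrane genes were lower in adults. Of 19 genes, 8 were called lower and none higher, with a median log2 fold change of -2.17, and 13 did not overlap on the lower side. Over all genes 4.65% were called lower, and 16.8% did not overlap on the lower side. The type IV collagen chains let-2 (chromosome X, 16380597 to 16389340) and emb-9 went from 6990, 6440 and 15200 CPM to 1420, 1890 and 1500 CPM and from 1660, 1460 and 3050 CPM to 350, 445 and 385 CPM. Adults were tightly grouped, and every one was below every late L4 library, of which replicate 3 was the highest. Log2 fold changes were -2.57 ± 0.42 for let-2 (edgeR adjusted p = 0.00229) and -2.39 ± 0.37 for emb-9 (adjusted p = 0.00165). Papilin, encoded by mig-6 (chromosome V, 7827217 to 7842390), went from 3360, 2790 and 7290 CPM to 650, 870 and 494 CPM (-2.74 ± 0.35, adjusted p = 0.000375), and ost-1, the SPARC gene, from 3240, 3000 and 5430 CPM to 900, 902 and 786 CPM (-2.17 ± 0.31, adjusted p = 0.00114).

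Laminin chains fell with the collagens. The alpha chain gene epi-1 (chromosome IV, 10666823 to 10679291) was at 682, 736 and 1330 CPM and then 63.8, 109 and 83.8 CPM (-3.42 ± 0.38, adjusted p = 0.000135). The gamma chain gene lam-2 was at 44.6, 41.3 and 63.8 CPM and then 3.13, 11.7 and 3 CPM (-3.07 ± 0.50, adjusted p = 0.00229), and the beta chain gene lam-1 was lower by a log2 fold change of -2.07 ± 0.45 (adjusted p = 0.0138). These 7 calls held with each library left out, while that of unc-52, perlecan (-2.26, adjusted p = 0.0384), held only without adult replicate 2. Late L4 replicate 3 was the library highest for all 8; without it the same 7 genes stayed called, and unc-52 had an adjusted p of 0.0631. Nidogen, nid-1, did not pass (-1.59, adjusted p = 0.0846). The summed level of the list was 6920 CPM at late L3 and 6210 CPM at early L4, stood at 22200 ± 10200 CPM at the end of L4, and was 4050 ± 630 CPM in adult libraries, so it was highest at late L4 and in adults lay below both earlier stages. In DTC libraries the mean of let-2 was 85300 CPM at late L4 and 8160 in adults. The DTC gene lag-2 was at or near 0 in the 6 libraries of other cells, with its highest value, 2.29 CPM, in late L4 replicate 3. Of the other DTC markers, hlh-12 was also highest of its group in late L4 replicate 3, at 3 CPM. There nid-1, catp-5 and mig-21 were at 34.1, 3.15 and 0.315 CPM, beside up to 67.9, 15.7 and 2.36 CPM in the other late L4 libraries. The genes fbxa-154 and srt-62 had no count. A part of DTC RNA in that library was not tested.

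Fewer body wall muscle markers passed the test. Of 30 markers 4 were called lower, where 4.65% of all genes were, with a median of -0.72. The summed level of the markers was 43000 ± 10400 CPM at late L4 and 29800 ± 2320 in adults. The giant sarcomere protein gene unc-89 (chromosome I, 4035702 to 4090885) held with each library left out, at 412, 454 and 739 CPM and then 127, 198 and 163 CPM (-1.72 ± 0.37, adjusted p = 0.0125). The ryanodine receptor unc-68 (-1.46), dim-1 (-1.21) and the calcium channel gene egl-19 (-2.03) were called with adjusted p from 0.0425 to 0.0452, and each lost its call on leaving out some libraries, with adjusted p up to 0.12. The list had 2 calls without late L4 replicate 1 or 3, 1 without late L4 replicate 2, 3 without adult replicate 1 or 3 and 4 without adult replicate 2. The coelomocyte gene cup-4 was the one of 6 coelomocyte markers called, from 718, 601 and 1890 CPM to 319, 201 and 125 CPM (-2.32). Its call was lost without late L4 replicate 1 or 3 or adult replicate 2 or 3. Not called, but without overlap on the lower side, were unc-122 (-2.13, edgeR adjusted p = 0.0581) and lgc-26 (-2.33, adjusted p = 0.0822). With 6 libraries these passed (adjusted p = 0.0357 and 0.0384) and cup-4 did not (0.0508). The rest, cup-5 (-0.16), mca-3 (0.07) and cdc-42 (0.55), were not called. Of 18 genes for folding in the endoplasmic reticulum 3 were called lower (1 to 5 with a library left out, lowest without late L4 replicate 1 and highest without adult replicate 1). Among them pdi-1, a protein disulfide isomerase, fell from 200, 245 and 271 CPM to between 108 and 127 CPM (-1.04 ± 0.22, adjusted p = 0.0127) and held with each library left out.

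**Figure D4:**
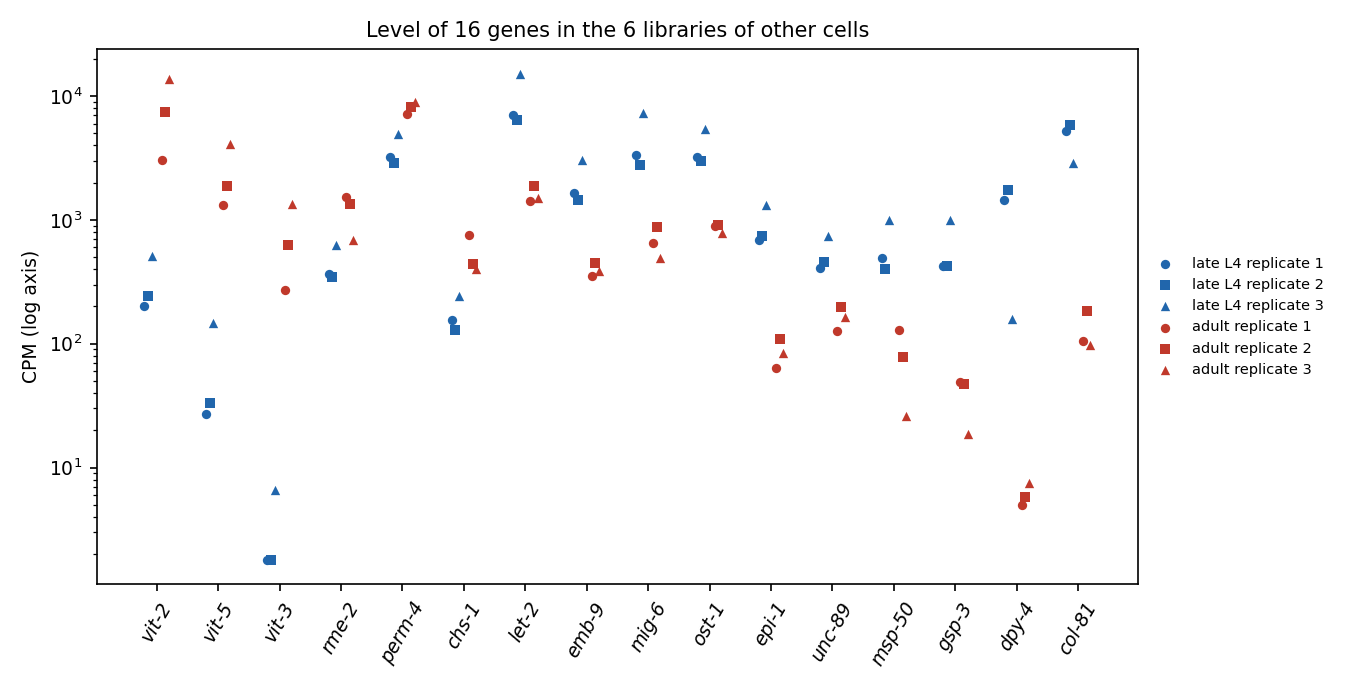
Levels of 16 genes in the 6 libraries, in CPM on a log axis, with blue symbols for late L4 and red for adult, and circle, square and triangle for replicates 1, 2 and 3. The yolk genes vit-2, vit-5 and vit-3 are above late L4 in every adult library, the basement membrane genes let-2, emb-9, mig-6, ost-1 and epi-1 are below it, and for dpy-4 the late L4 triangle lies far under the circle and square.

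Digestive genes of the intestine were higher in adults, with wide spread among the adult libraries. Of 28 proteases and lysozymes 7 were called higher and none lower, where 2.05% and 4.65% of all genes were, with a median of 1.90. The cathepsin B-like protease gene cpr-6 stood at 115 ± 35.3 CPM at late L4 (mean and SD of 3 libraries) and at 398, 1040 and 2560 CPM in adults (3.53 ± 0.80, edgeR adjusted p = 0.0161), and cpr-4 was at 39.7, 82.1 and 11.9 CPM and then 196, 318 and 783 CPM (3.28 ± 0.78, adjusted p = 0.0209). The saposin-like antimicrobial genes spp-1, spp-3 and spp-5 rose by 2.93, 2.88 and 2.79, and the aspartyl protease gene asp-2 by 2.28 (adjusted p = 0.0344). In each of these named with values, adult replicate 3 was the highest and adult replicate 1 the lowest of the adults. No call of the list held with every library left out: there were 2 without late L4 replicate 1, 4 without late L4 replicate 2, 0 without late L4 replicate 3, 7 without adult replicate 1, 4 without adult replicate 2 and 0 without adult replicate 3. With 6 libraries 2 of 28 were called.

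Of 16 intestine markers, the metallothioneins were called higher. The level of mtl-1 (chromosome V, 6691371 to 6691863) was 1.57, 2.43 and 2.76 CPM at late L4 and 30.4, 42.5 and 38.4 CPM in adults (4.04 ± 0.71, adjusted p = 0.00366), and the call held with each library left out. For mtl-2 the levels were 10.6, 13.1 and 8.43 CPM and then 24.5, 28.2 and 120 CPM (2.43 ± 0.66, adjusted p = 0.0344), a call kept only without adult replicate 1. The intestinal transcription factor elt-2 (-0.58) and the intestinal actin act-5 (-0.12) did not pass the test, and the list's median was 0.60. Among 125 C-type lectins, 7 were called higher and 5 lower, with a median of 0.07, where 2.05% and 4.65% of all genes were. Lower in adults were clec-119, at 66.7, 44.3 and 139 CPM and then 0.0613, 0 and 0 CPM (adjusted p = 0.00165), and clec-180, at 2.25, 10.4 and 5.6 CPM and then 0 in each library (adjusted p = 0.00806), both held with each library left out. Higher lectin calls numbered 7 without adult replicate 1 and 0 without each of the other 5 libraries; lower calls numbered 3 without late L4 replicate 1 or 2, 4 without late L4 replicate 3, 7 without adult replicate 1 and 2 without adult replicate 2 or 3.

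Neuropeptide genes were higher in adults by a median of 1.29, and 38 of 124 did not overlap on the higher side, where 11% of all genes tested did not. Few passed the test. With 24 libraries 5 were called higher and 1 lower, where 2.05% and 4.65% of all genes were, and with 6 libraries 0 and 1 of 105. The 1 lower call is not above the share of all genes. The FMRFamide-like peptide genes flp-5 (1.96 ± 0.48, adjusted p = 0.0254) and flp-14 (2.29 ± 0.67, adjusted p = 0.0459), the insulin-like gene ins-24 (2.67 ± 0.78, adjusted p = 0.0448), and nlp-36 and nlp-40 were the higher ones. Levels of flp-5 were 38.8, 41 and 13 CPM and then 68.3, 98.8 and 195 CPM. Higher calls numbered 0 without late L4 replicate 1, 1 without late L4 replicate 2, 0 without late L4 replicate 3, 3 without adult replicate 1 and 0 without adult replicate 2 or 3. The summed level was 2120, 1970 and 559 CPM at late L4 and 3680, 4430 and 6390 CPM in adults, so late L4 replicate 3 was the lowest here. The single lower call, ins-37, shares 20.1% of its exon bases with a gene on the other strand and is uncertain. No gene of 33 neuron markers was called by edgeR, with a median of 0.59; unadjusted p under 0.05 was reached by 4 on the higher and 2 on the lower side, voom called 1 each way and DESeq2 2 lower.

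Innexins form gap junctions, and of 24 tested 1 was called higher and 3 lower. The gonadal sheath innexin gene inx-8 rose from 132, 140 and 86.9 CPM to 228, 610 and 444 CPM (1.84 ± 0.35, adjusted p = 0.0068), a call lost without late L4 replicate 3 or adult replicate 2. Of 14 gonadal sheath and spermatheca markers, inx-8 was the 1 called higher and fkh-6 the 1 called lower (-1.99, edgeR adjusted p = 0.0344). The call of fkh-6 was lost without late L4 replicate 1 or 2 or adult replicate 1 or 2. Not called were inx-9 (0.45), lim-7 (-0.24) and ceh-18 (-0.89), among others. The innexin gene inx-1 fell from 1.95, 3.29 and 2.29 CPM to 0 in each adult library, at least 30.3-fold lower (adjusted p = 0.00899), and held with each library left out. Also lower were inx-18 (-3.24 ± 0.84, adjusted p = 0.0296), whose call was lost without late L4 replicate 1 or 2 or adult replicate 1, and eat-5, with 2 adult counts left and late L4 58.5-fold higher (15.9 to 488), whose call held only without late L4 replicate 3 or adult replicate 3. Of 36 histone genes of the his class, which include the linker histone gene his-24, his-31 was called higher and his-70 lower. The first had no count at late L4 and 1.59, 2.29 and 0.103 CPM in adults. The level of his-70 was 29.1, 22.8 and 40.1 CPM and then 1.41, 0.199 and 0.62 CPM. Neither call held throughout, with adjusted p up to 0.0684 for his-31 and 0.117 for his-70, and histone copies share reads. Of 27 lipid synthesis genes the desaturase gene fat-4 was called higher (1.04) and the lipid-binding protein gene lbp-3 lower (-1.85). Without adult replicate 1, 5 lipid genes were called higher; without each of the other 5 libraries none was. The lower call of lbp-3 was lost without late L4 replicate 3 or adult replicate 2. Over all genes 2.05% were called higher and 4.65% lower. The 1 call in each direction among histones and among lipid genes is near those shares.

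Several housekeeping groups had no edgeR call in either direction. Among 81 ribosomal protein genes the median was 0.05, 1 gene on the higher and 2 on the lower side had an unadjusted p under 0.05, and DESeq2 called 9 lower. Among 15 cytosolic heat shock genes the median was 0.19, and 3 were lower both at an unadjusted p under 0.05 and with DESeq2. Among the 12 protein-coding genes of the mitochondrial genome the median was 1.35, 7 were higher at an unadjusted p under 0.05, and neither DESeq2 nor voom called any. For the mitochondrial genome the libraries overlapped: its non-ribosomal genes took 2.03, 1.8 and 0.454% of counts at late L4 and 1.76, 3.57 and 2.73% in adults. Of 37 nuclear genes for oxidative phosphorylation, sdhb-1, a succinate dehydrogenase subunit, was called lower (-0.78), a call lost without late L4 replicate 1 or 2, and of 33 proteasome genes rpn-6.1 was called higher, a call lost without any 1 of the 6 libraries. Each was the 1 call of its list, where 4.65% of all genes were called lower and 2.05% higher. The 9 glia and 10 excretory system markers had no call by edgeR, voom or DESeq2, and 1 glia marker was lower at an unadjusted p under 0.05.

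Genes at the extremes of the comparison were mostly absent from 1 group. On the higher side, C08F1.10 (chromosome II, 1785262 to 1786309) had no count at late L4 and 32.1, 27.4 and 15.6 CPM in adults, at least 352-fold higher (adjusted p = 0.011). The receptor guanylyl cyclase gene gcy-15 also had none at late L4 and 3.86, 13.1 and 13.7 CPM in adults, at least 121-fold higher (adjusted p = 0.00999), although its means at late L3 and early L4 were 5.6 and 4.53 CPM. The chitinase gene cht-1 (chromosome X, 3397613 to 3400017) rose from 0.15, 0.143 and 0.0788 CPM to 40.3, 14.6 and 36.5 CPM, a log2 fold change of 7.84 ± 1.38 (adjusted p = 0.00383). These 3 calls held with each library left out.

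On the lower side, the genes with the largest bounds had no count in adults. They included idpc-3 (chromosome V, 9628036 to 9629214), at 222, 206 and 20.4 CPM at late L4 and at least 1830-fold lower in adults, although 28.3% of its exon bases overlap a gene on the other strand. Its neighbour idpc-6 (chromosome V, 9620150 to 9621036) was at 91, 70.8 and 10.2 CPM and at least 700-fold lower. The ABC transporter gene wht-8 (chromosome III, 11218791 to 11222733) was at 29.4, 42.9 and 96.3 CPM and at least 665-fold lower, and tag-297 (chromosome II, 14627630 to 14630121) at 52.9, 94.5 and 9.22 CPM and at least 644-fold lower. Their calls held with each library left out, with adjusted p of 0.00317 for idpc-3, 0.011 for idpc-6, 0.00872 for wht-8 and 0.00922 for tag-297. Late L4 replicate 3 was the lowest of its group for idpc-3, idpc-6 and tag-297 and the highest for wht-8. At early L4 the mean of idpc-3 was 8.08 CPM and that of idpc-6 was 1.4 CPM, below the 199 and 54.4 CPM of late L3.

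Set against all 4 stages of other cells, genes called higher in adults mostly had their highest level there, and genes called lower had theirs at different stages. The highest of the 4 stage means was the adult one for 321 of the 347 higher genes (92.5%) and the late L3 one for 23. For the 786 lower genes it was late L4 for 391 (49.7%), early L4 for 202 (25.7%) and late L3 for 193 (24.6%). As the adult value chose these genes, the first share is a description only. By their means, untested, the vitellogenin sum was higher at each later stage, the sperm sums were highest at late L4, the furrow collagen sum was lower at each later stage, and the basement membrane sum was highest at late L4. Late L3 replicate 3 also stood apart in the furrow collagens, at 1210 CPM beside 21400 and 23500.

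**Figure D5:**
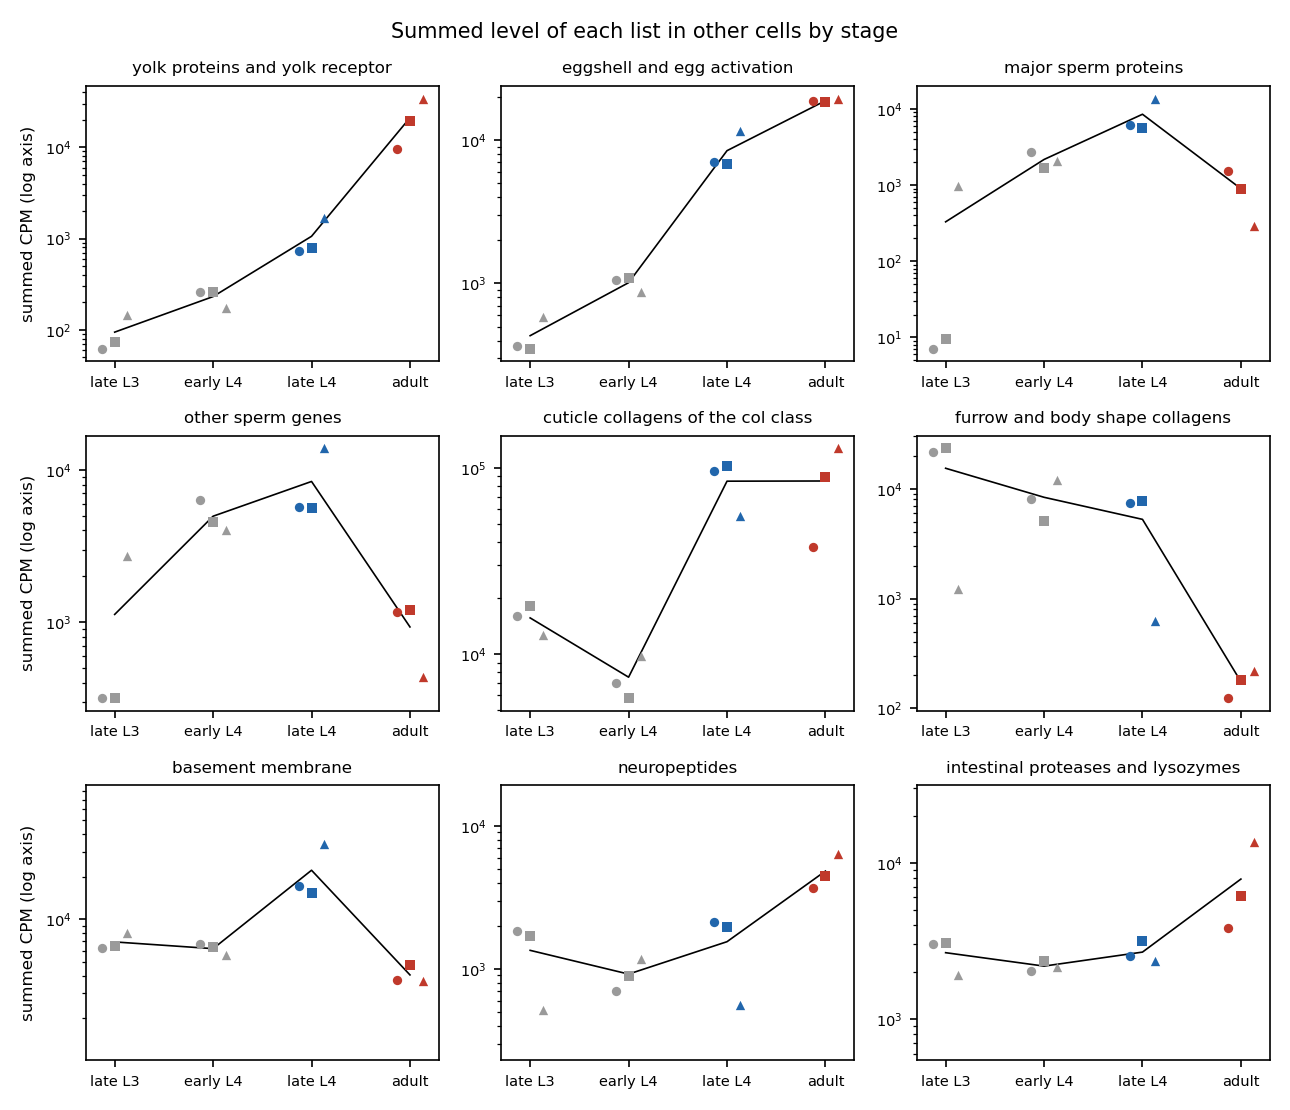
Summed CPM of 9 gene lists in each library of other cells, on log axes, at late L3, early L4, late L4 (blue) and adult (red), with circle, square and triangle for replicates 1, 2 and 3 and a line through the means. The sum of yolk and yolk receptor genes goes from 94.5 to 21000 CPM, with rme-2 making up 94 CPM of the first value, the furrow collagen sum from 15400 to 176 CPM, and the basement membrane sum peaks at late L4 at 22200 CPM.

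The same step was compared with that in DTC libraries by an interaction term in the 24-library fit, where 1206 genes (7.14%) had a different step, 642 (3.8%) with a higher step in other cells and 564 (3.34%) with a lower one. Yolk genes were not among them: for vit-2 the difference in log2 fold change was -1.36 (adjusted p = 0.527), and the mean of vit-5 in DTC libraries was 90.4 CPM at late L4 and 9080 CPM in adults. Adult DTC libraries held more yolk RNA than adult other cells, with means of 46400 beside 8080 CPM for vit-2 and 56400 beside 7360 CPM for vit-6. How much RNA of other cell types the DTC libraries held was not tested, and this limits every difference in step given here. Of the 19 basement membrane genes 1 differed, unc-52, whose step was lower in other cells by -4.79 (adjusted p = 0.00454). Of the 30 muscle markers, 10 had a lower step in other cells and 1 a higher one; for unc-89 the DTC means were 204 CPM at late L4 and 482 CPM in adults, and the difference was -2.96 (adjusted p = 0.00278). Among the col genes 9 had a lower step in other cells. In the egg activation list, mbk-2, a kinase of the oocyte-to-embryo transition, had a higher step in other cells by 2.31 (adjusted p = 0.000536). Its DTC mean went from 246 to 82.6 CPM. In the uterine list ule-3 and ule-5 had lower steps in other cells by -5.98 and -6.17. In other cells the mean of ule-3 was 947 and then 950 CPM, and that of ule-5 404 and then 924 CPM. In DTC libraries ule-3 went from 221 to 14000 CPM and ule-5 from 76.8 to 12600 CPM. A step can thus be lower in other cells without a fall there.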

How the data were processed

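Polyadenylated RNA was measured in 24 libraries, and the 6 of non-DTC cells from late L4 and adults are compared here, grouped by their labels. The deposited values are raw read counts per gene, made by the authors; per the submitters' processing notes the tools were FastQC, cutadapt, Bowtie2 and HTSeq with build ce11, while neither their versions nor HTSeq's strand option is given in the sources used here. Positions come from the WBcel235 annotation, which is the same assembly as ce11 (46603 of 46778 IDs matched; 43818 had a symbol).

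From these counts, genes passing filterByExpr over 8 groups (16887) were scaled by TMM and fitted with edgeR 4.0.16 (R 4.3.3) as 1 quasi-likelihood model with 8 group means, common biological coefficient of variation 0.835. Adjusted p is Benjamini-Hochberg over all genes tested, and a gene was called under 0.05. Where a standard error is printed with a log2 fold change, it is the absolute fold change on that scale divided by the square root of the quasi-likelihood F. Some fold changes are printed without it. Root mean square log2 deviation from the group mean was 0.976 in adult and 0.749 in late L4 other cells and 0.476 at early L4, so the shared spread describes adults less well. A change is a change in share of RNA. Folds against a group without counts are bounds against 3 counts over the group; for 1 to 3 counts a 95% interval is given, which covers counting error only. An exact test of 3 against 3 libraries cannot go below p = 0.1, so none is given. Genes named were the 12 highest and 12 lowest called changes with no overlap of libraries and a mean of at least 10 CPM in the higher group, at most 3 of a symbol class, up to 4 called members of a list in each direction by size of change, and defining members; other members (among them asp-2, spp-5, nlp-40, spe-26, grd-15, wrt-6, col-81, col-129, col-161 and col-49) were chosen after their values were seen. Members and lists were chosen with earlier results of these data known. No library pair agreed within sampling noise. Alternatives were other scalings and filters, limma 3.58.1 voom with sample weights, DESeq2 1.42.0, a replicate block, fits of fewer libraries and each library left out.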

Additional observations from a re-analysis of the deposited data

Results flagged for a closer look

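The step from late L4 to adulthood differed between other cells and DTC libraries for 19 of the genes chosen by the naming rule, by the interaction term of the 24-library edgeR fit (adjusted p by Benjamini-Hochberg over 16887 genes). Values are the log2 fold change in other cells minus that in DTC libraries. The amount of RNA of other cell types in the DTC libraries was not tested. Where a group has 3 counts or fewer, the fitted value depends on the small count added by the fit and is no bound; in other cells this holds for his-31, gcy-15, lin-14, col-13, dpy-7, inx-1, clec-119, Y48B6A.5 and wht-8, and in DTC libraries for WBGene00013251 and dpy-7.

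The step was higher in other cells for WBGene00013251, a pseudogene (10.99, adjusted p = 0.00116), his-31 (8.06, adjusted p = 0.0316), gcy-15 (7.65, adjusted p = 0.0474) and the helicase subunits mcm-4 (1.71, adjusted p = 0.0188) and mcm-3 (1.68, adjusted p = 0.0187). It was lower for the muscle genes dim-1 (-1.96, adjusted p = 0.0238), unc-89 (-2.96, adjusted p = 0.00278) and unc-68 (-3.69, adjusted p = 0.00168), for sdhb-1 (-1.35, adjusted p = 0.0187), grd-5 (-2.56, adjusted p = 0.0297), cup-4 (-3.81, adjusted p = 0.018) and lbp-3 (-4.89, adjusted p = 0.000536). Also lower were lin-14 (-6, adjusted p = 0.027), inx-1 (-9.04, adjusted p = 0.0104), clec-119 (-9.41, adjusted p = 0.0082), Y48B6A.5 (-11.76, adjusted p = 0.0433) and wht-8 (-12.04, adjusted p = 0.0179). Among cuticle collagens it was lower for col-13 (-6.43, adjusted p = 0.0446) and dpy-7 (-8, adjusted p = 0.0108).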

How the results depend on the processing

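No named gene reversed its direction under the alternatives run. The 1133 calls became 3026 with DESeq2 (598 higher and 2428 lower) and 630 with 6 libraries (55 higher). Lower calls were 1329 with no filter on low counts, and higher calls 144 with RLE size factors and 184 without ribosomal RNA genes. Without late L3 replicate 3 of the other cells, added after seeing the data, there were 1807 calls, of which 1403 were lower. Leaving out each of the 6 libraries gave 428 to 1230 calls, 55 to 212 higher and 370 to 1018 lower. The 1206 genes whose step differed between fractions became 2603 with DESeq2, 540 with only the 12 libraries of both fractions, and 405 (without late L4 replicate 3 of the DTCs) to 1196 with a library left out. Of 99 named genes with a test, 40 to 71 stayed called with a library left out, 85 with RLE, 98 with DESeq2 and 59 with voom. The causes were not tested. Depth limits genes with few counts, and the 349 lower genes with at most 3 adult counts have bounds or counting intervals.

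Deviations of same-numbered libraries had correlations of -0.188, -0.023 and -0.309. Deviations within a group are tied through its mean, so these values cannot tell whether same-numbered libraries came from a shared preparation. With the replicate block there were 634 calls, 165 higher and 469 lower, and 64 of the 99 named genes stayed called. No adult library correlated best with its own number. Adult replicates 1 and 2 deviated most like late L4 replicate 3 (correlations 0.313 and 0.049), and adult replicate 3 most like late L4 replicate 2 (0.198).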

Other observations

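Symbol classes that were not themselves lists (8 in all) were looked at after their values were seen, so their counts are a description only. All 7 idpc genes tested were called lower in adults, with a median log2 fold change of -11.04, and 6 of them also with 6 libraries. Of 11 abu genes, which encode proteins related to those induced when the unfolded protein response is blocked, 9 were called lower, with a median of -8.88, and 5 with 6 libraries. Of 23 spp genes, which encode saposin-like proteins, 7 were called higher and 2 lower, with a median of 2.29, and with 6 libraries 2 and 0 were. Of those 23, spp-1, spp-2, spp-3, spp-5 and spp-8 also belong to the protease and lysozyme list of the report, as do several cpr genes. Of the other 5 classes, 6 of 49 pqn genes were lower (median 0.02), 3 of 16 idpp genes were lower (-3.23), 2 of 20 vha genes were higher (0.65), 3 of 7 cpr genes were higher (0.94) and 4 of 13 nspg genes were higher (1.44). Beside these, 2.05% of all genes were called higher and 4.65% lower.

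Among symbol classes with at least 15 genes tested, the shares called lower were highest for col (44.5%), grl, the ground-like Hedgehog-related class (35%), and dpy (20%), and the share called higher was highest for spp (30.4%).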
